A study of Mus musculus with 6 samples.

Results

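The 78 nuclear genes described here encode subunits of the respiratory chain and of the mitochondrial ATP synthase. They were taken by symbol from the 14228 genes of the deposited mouse count table: the Nduf subunits of complex I without its assembly factors, Sdha to Sdhd of complex II, the Uqcr genes of complex III, the Cox4 to Cox8 genes of complex IV and the Atp5 genes of complex V. Ndufa4l2 was kept out of the set, and Ndufa4, named for complex I, was placed with complex IV, where its protein sits. The set is nearly complete for these symbols, since 83 protein-coding genes of the mouse annotation have a symbol of this form. Subunits with other symbols, such as Cyc1 of complex III and Ndufab1 of complex I, are outside it. The subunits encoded by mitochondrial DNA are not analysed here, because the table lists 0 such genes.

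All libraries were made from stomachs of triple-transgenic iLgr5;GLI2A mice, aged 8 weeks, and both groups carry the same transgenes. In this line, tamoxifen-activated Cre in Lgr5-expressing cells allows doxycycline to switch on an active form of the transcription factor GLI2 in those cells. The 3 libraries of cancer-associated fibroblasts (CAF) came from mice given tamoxifen in corn oil by gavage over 5 days, followed by doxycycline chow for 3 weeks with doxycycline added to sweetened water on the first 3 days. The 3 libraries of normal fibroblasts came from mice given corn oil alone, so the drugs and the cancer they induce cannot be told apart here. Libraries 1, 2 and 3 pooled 1, 2 and 2 mice in the CAF group and 1, 1 and 2 mice in the normal group. In both groups the cells were live and positive for podoplanin, a surface protein of fibroblasts, and were negative for CD31 (endothelium), CD45 (immune cells) and EpCAM (epithelium). RNA was read by MARS-seq, which counts the 3′ ends of polyadenylated transcripts.

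Complex I takes electrons from NADH and complex II takes them from succinate. Both pass them through coenzyme Q to complex III, from where cytochrome c carries them to complex IV, which reduces oxygen. Complexes I, III and IV pump protons out of the mitochondrial matrix, and the ATP synthase lets them flow back to make ATP. In the stomach the acid-secreting parietal cell is known as one of the cells richest in mitochondria, while proliferating and stromal cells often lean more on glycolysis.

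The depth was 644522 to 6422568 counts per CAF library and 768420 to 3259644 per normal library, with 11627 to 14118 genes detected. Levels below are counts divided by the library total and brought to the usual common scale (CPM), on library sizes scaled by trimmed mean of M-values. All 12 fibroblast markers listed were in the table, and their summed share of all counts was 1.09%, 3.11% and 3.76% in CAF libraries 1 to 3, against 0.487%, 0.985% and 1.96% in normal libraries 1 to 3. Marker genes of 4 gastric gland cell types (parietal, chief, pit and neck, and enteroendocrine) took 0.612%, 0.873% and 0.643% of counts in the CAF libraries, against 20.2%, 16.5% and 4.19% in the normal libraries. Libraries 1 and 2 of the normal group therefore stood apart from normal library 3 in both sums, although the sort had removed EpCAM-positive cells. Pit and neck cell markers were the exception: they took 2.81% in normal library 3, near the 3.96% and 3.53% of normal libraries 1 and 2, and 0.151% to 0.660% in the CAF libraries. In bulk libraries, fewer cells of a type and less RNA per cell cannot be told apart.

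Most respiratory genes had lower values in CAF than in normal libraries on average, but the difference came from normal libraries 1 and 2, and no gene passed the test. Of the 78 genes, 76 had enough counts to be tested, and Cox8b and Ndufa11 did not. The median log2 fold change of CAF over normal was -0.90 over these 76 genes (a level 1.87-fold lower) and 0.06 over all 10148 genes tested. The fold change was below 0 for 74 of 76 genes, against 46.1% of all genes tested. At an adjusted p under 0.05 (edgeR's quasi-likelihood F test, Benjamini-Hochberg adjustment over all genes tested), 0 of 76 were lower in CAF and 0 were higher, against 0.207% and 0.897% of all genes. At an unadjusted p under 0.05, 22 of 76 were lower and 0 higher, against 7.97% and 7.37% of all genes. The smallest adjusted p was 0.0811, for Cox7a1. Exons of 18 of the 78 genes overlap another gene of the table on the opposite strand, among the genes named below Cox4i1 (Emc8), Ndufa11 (Vmac), Ndufa13 (Tssk6), Ndufb5 (Mrpl47), Ndufb11 (Rbm10), Atp5d (Cbarp), Atp5j (Gabpa) and Uqcrb (Gm10767). Whether strand was used in counting, and how reads matching several places such as processed pseudogenes were treated, is not given in the sources used here, so reads of such copies cannot be told apart.

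The 3 CAF libraries lay close together in their medians, in part because values were taken relative to each gene's own CAF mean. The median over the 76 genes was 0.09, 0.02 and -0.09 on the log2 scale in CAF libraries 1 to 3. Single genes spread more, with a 10th percentile of -0.53 and a 90th percentile of 0.64 in CAF library 1. The median was 1.13 in normal library 1, 1.41 in normal library 2 and -0.19 in normal library 3. Over all genes tested the same medians lay between -0.03 and 0.04. A value more than 1 above the CAF mean was seen for 51 genes in normal library 1 and 58 in normal library 2, but for 1 gene in normal library 3. The 90th percentile over all genes tested was 1.23, 1.45 and 1.06 in normal libraries 1 to 3. Normal libraries 1 and 2 both exceeded the other 4 libraries for 64 of 76 genes, against 15.4% of all genes tested.

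**Figure D1:**
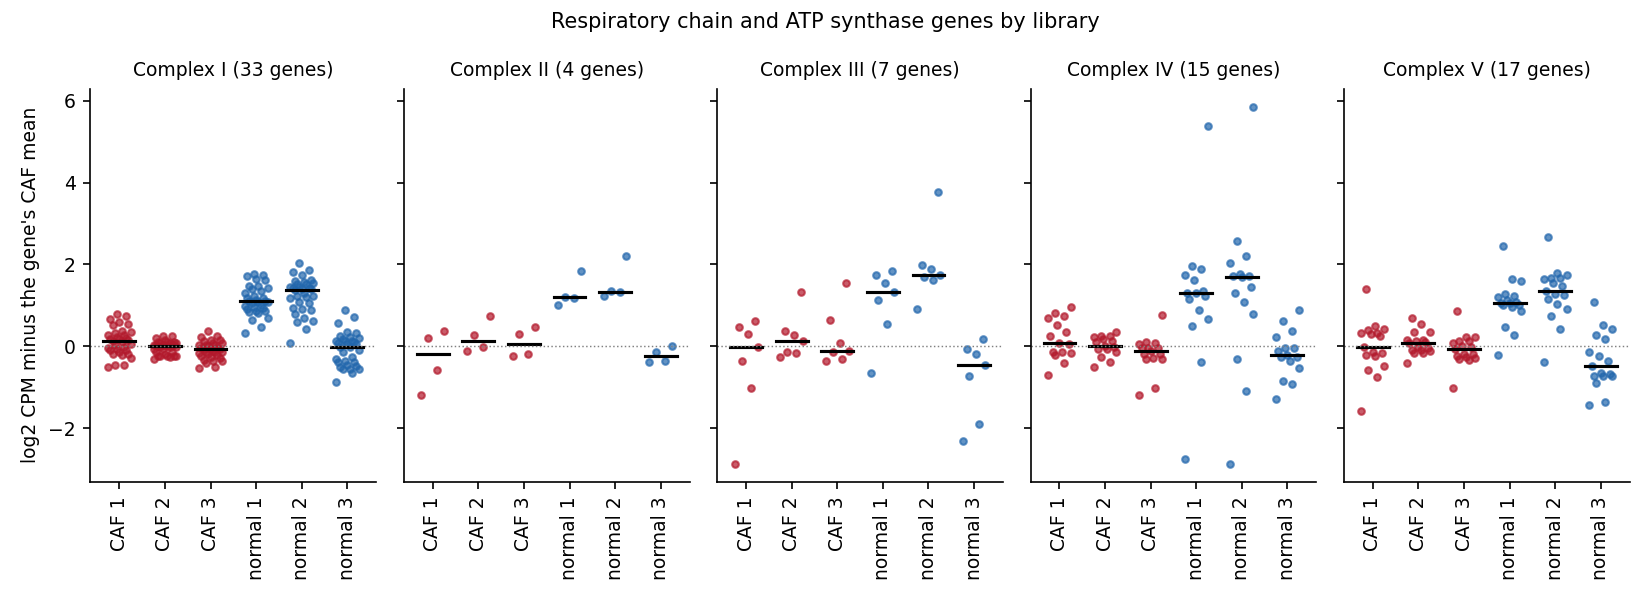
Each point is 1 tested respiratory gene in 1 library, shown as its log2 CPM minus the mean of that gene over the 3 CAF libraries (vertical axis), by complex (panels) and library (horizontal axis; CAF red, normal blue), and black lines are medians. In every complex the medians of normal libraries 1 and 2 lie above 1, while that of normal library 3 lies below 0.

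Normal library 3 sat within or below the CAF range for most of the set. It lay within the range of the 3 CAF libraries for 37 of 76 genes (40.1% of all genes tested), below all of them for 28 (30.5%) and above all of them for 11 (29.3%). Accordingly, all 3 CAF libraries lay below all 3 normal libraries for only 10 of 76 genes, against 9.35% of all genes, and all CAF libraries lay above all normal libraries for 0 of 76, against 10.6%. The 10 genes were Ndufa6, Ndufb4, Ndufb5, Ndufb9, Ndufb11, Ndufs7 and Ndufs8 of complex I, Cox7a1 of complex IV and Atp5g1 and Atp5g3 of complex V.

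The summed counts show the same order of libraries. The 78 genes took 2.30%, 2.25% and 2.13% of all counts in CAF libraries 1 to 3, compared with 3.58%, 4.68% and 1.77% in normal libraries 1 to 3. The widest 95% exact binomial interval was 4.63% to 4.72% (normal library 2), which covers counting error only. Parietal cell markers (7 genes in the table) took 0.0256%, 0.0152% and 0.0570% in the CAF libraries, against 1.23%, 1.82% and 0.0616% in the normal libraries. Atp4a, the catalytic subunit of the gastric proton pump, stood at 87.8, 39.7 and 220.0 CPM in the CAF libraries and at 6647, 8294 and 213 CPM in the normal libraries. Atp4b, its beta subunit, stood at 121, 51.6 and 245 CPM and at 7321, 9884 and 320.0 CPM. Cblif, the gastric intrinsic factor, stood at 20.5, 5.93 and 3.52 CPM and at 2155, 2199 and 48.8 CPM, and chief cell markers took 0.424%, 0.196% and 0.150% of counts in the CAF libraries, against 14.5%, 10.9% and 1.30% in the normal libraries. Of the other parietal markers, Kcne2 and Kcnj16 were at 0 counts in CAF library 1 and Aqp4 at 0 in normal library 3. The 2 libraries high in respiratory genes were thus the 2 high in parietal and chief cell markers. Both were single mice, but so was CAF library 1, where respiratory genes took 2.30%. Squamous forestomach markers were also high in normal libraries 1 and 2, at 0.137% and 0.252%, against 0.0154% in normal library 3 and at most 0.00744% in CAF. General epithelial markers (10 genes) did not split this way. Their shares were 0.395%, 0.228% and 0.116% for normal libraries 1 to 3, against 0.332%, 0.157% and 0.161% for CAF libraries 1 to 3. CAF library 1 thus exceeded normal library 2 for this list. The part of gland cells, other epithelium and single mice in the result was not tested.

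**Figure D2:**
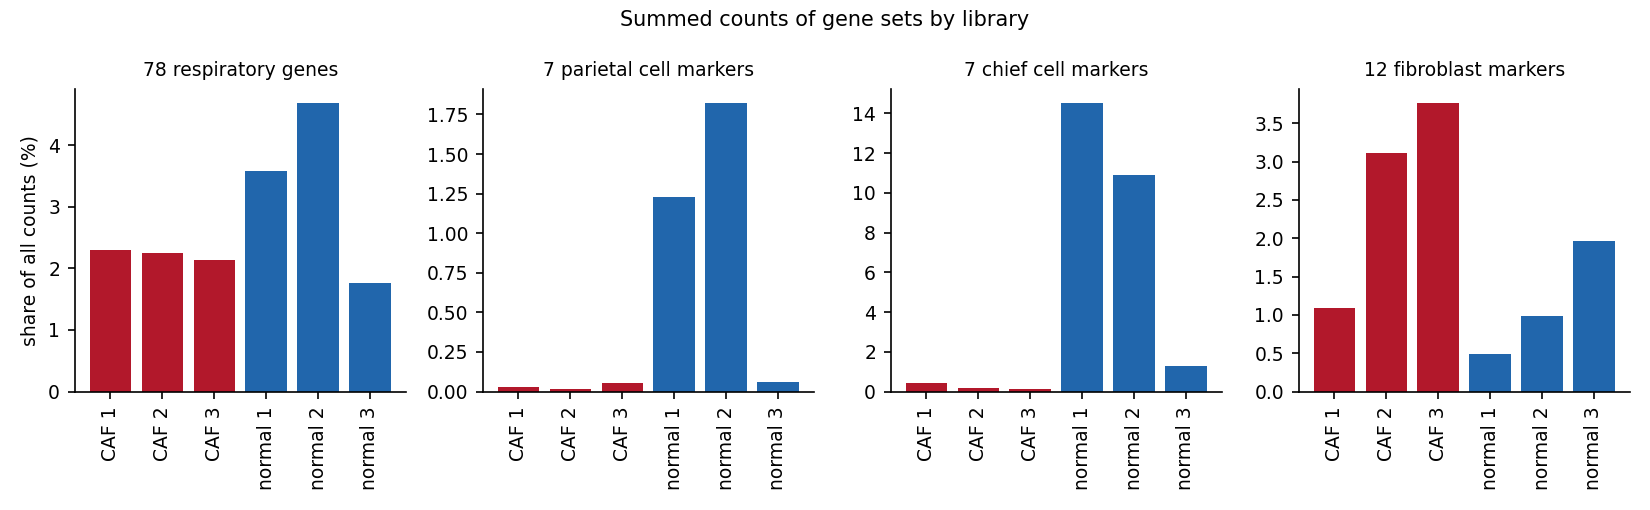
Bars give the summed counts of a gene set as a percent of all counts (vertical axis, own scale per panel) in each library (CAF red, normal blue). The 78 respiratory genes took 3.58% and 4.68% in normal libraries 1 and 2 and between 1.77% and 2.30% in the other 4, and parietal and chief cell markers were high in the same 2 libraries, while fibroblast markers took 1.09% or more in the CAF libraries and normal library 3.

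Because respiratory genes are known targets of shared transcription factors, the 250 bases upstream of each RefSeq gene start (GRCm38.p6) were searched on both strands for 4 motifs. Of the 78 genes, 66 had an entry. The letters GCGCANGCG, the core of the binding motif of NRF1 (nuclear respiratory factor 1), occurred in 13 of 66 (19.7%) and in 5.86% of all 27025 genes with an entry. The letters CCGGAAG, shared by ETS factors such as GABP (nuclear respiratory factor 2), occurred in 12 of 66 (18.2%) and in 7.83% of all genes. The YY1 letters AAGATGGCG occurred in 1 gene (Atp5j; 0.71% of all genes) and the estrogen-related receptor letters TCAAGGTCA in 1 (Atp5g3; 0.422% of all genes). Both the NRF1 and the ETS letters were found in 4 of 66 genes, Atp5h, Atp5l, Cox6a1 and Sdhd (6.06%, against 0.981% of all genes). A match is a description of these letters and not evidence of binding.

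The windows of 4 genes are shown because the results below turn on them or because they hold both motifs. Cox6a1 (chr5:115348959-115349208, minus strand) and Atp5l (chr9:44920743-44920992, minus strand) hold both. Cox7a1 (chr7:30183921-30184170, plus strand) and its ubiquitous counterpart Cox7a2 (chr9:79759854-79760103, minus strand) hold neither set of letters. Capitals mark NRF1 and ETS matches, and overlapping NRF1 matches in Cox6a1 run together.
Cox6a1: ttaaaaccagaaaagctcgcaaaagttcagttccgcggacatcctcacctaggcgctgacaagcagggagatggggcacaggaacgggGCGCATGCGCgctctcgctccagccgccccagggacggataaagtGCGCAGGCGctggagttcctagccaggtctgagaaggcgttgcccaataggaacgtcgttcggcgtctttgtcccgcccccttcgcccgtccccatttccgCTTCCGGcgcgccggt
Atp5l: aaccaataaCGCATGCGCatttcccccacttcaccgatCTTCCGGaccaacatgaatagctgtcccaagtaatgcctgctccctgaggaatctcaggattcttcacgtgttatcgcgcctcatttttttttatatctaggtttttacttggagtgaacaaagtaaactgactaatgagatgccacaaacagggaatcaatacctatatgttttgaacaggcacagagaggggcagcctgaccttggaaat
Cox7a1: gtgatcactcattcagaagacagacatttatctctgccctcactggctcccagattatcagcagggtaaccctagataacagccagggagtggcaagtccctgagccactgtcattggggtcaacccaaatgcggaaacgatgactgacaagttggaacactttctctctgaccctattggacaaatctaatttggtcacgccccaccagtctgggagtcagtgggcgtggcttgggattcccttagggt
Cox7a2: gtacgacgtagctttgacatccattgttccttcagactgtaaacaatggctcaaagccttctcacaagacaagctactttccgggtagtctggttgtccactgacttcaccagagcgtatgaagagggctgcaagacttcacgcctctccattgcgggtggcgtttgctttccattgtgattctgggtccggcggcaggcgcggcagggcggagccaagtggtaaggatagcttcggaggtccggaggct
Of the 4 genes with both motifs, Atp5h, Cox6a1 and Sdhd had normal libraries 1 and 2 above the other 4 libraries, as had 64 of the 76 tested genes. Atp5l did not, with 60.0, 16.8 and 10.8 CPM in the CAF libraries and 69.0, 30.4 and 47.5 CPM in the normal libraries, which overlap.

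All 33 tested genes of complex I had fold changes below 0, with a median of -0.89 and a range of -1.49 to -0.13, and 13 had an unadjusted p under 0.05. The 7 genes for subunits that carry electrons from NADH to coenzyme Q had a median of -0.93, and the 26 tested accessory subunits, which stabilise the complex, had -0.87. Ndufs7, an iron-sulfur subunit next to the coenzyme Q site, was named after its values were seen. It was at 198, 173 and 174 CPM in the CAF libraries and 566, 532 and 271 CPM in the normal libraries. Every normal library exceeded every CAF library, with normal library 3 nearest to the CAF group. Its log2 fold change was -1.33 ± 0.37 (SE, n = 3 in each group, adjusted p = 0.122). Ndufs8, another iron-sulfur subunit chosen the same way, had a value of -1.31 ± 0.41 on the same scale (adjusted p = 0.171).

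Ndufb4 (chr16:37647170-37654453, minus strand, mm10), an accessory subunit of the membrane arm and the complex I gene with the smallest p, was at 62.9, 43.8 and 50.3 CPM in the CAF libraries and 134, 129 and 96.3 CPM in the normal libraries. Its groups did not overlap, and normal library 3 lay between the CAF and the other normal libraries. The log2 fold change was -1.21 ± 0.30 (adjusted p = 0.0998). Ndufb9, also a membrane arm subunit, was at 306, 322 and 327 CPM in the CAF libraries and 1052, 1306 and 329 CPM in the normal libraries. Its normal library 3 was level with the CAF libraries, so the log2 fold change of -1.49 ± 0.51 (adjusted p = 0.213) came from normal libraries 1 and 2. Ndufa13, also known as a regulator of cell death, had -0.53 ± 0.39 on the log2 scale (adjusted p = 0.606). Ndufa7, an accessory subunit, had -0.41 ± 0.35 (adjusted p = 0.667). Ndufc2, named after its values were seen, departed from the common pattern with 379, 211 and 194 CPM in the CAF libraries and 311, 266 and 280 CPM in the normal libraries. The groups overlapped fully (log2 fold change -0.13 ± 0.35, adjusted p = 0.910). Ndufa11 was at 1.46 to 2.57 CPM in all 6 libraries, too low to test.

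The 4 genes of complex II, the succinate dehydrogenase shared with the tricarboxylic acid cycle, had a median log2 fold change of -0.88, and none had an unadjusted p under 0.05. Sdhb, the iron-sulfur subunit, was at 392, 280 and 256 CPM in the CAF libraries and 705, 773 and 276 CPM in the normal libraries. Normal libraries 1 and 2 were high and normal library 3 lay inside the CAF range (log2 fold change -0.92 ± 0.45, adjusted p = 0.392). The same order held for Sdha, the flavoprotein (-0.76 ± 0.48, adjusted p = 0.530), and for Sdhc, a membrane anchor, except that normal library 3 was below the CAF range there (-0.84 ± 0.46, adjusted p = 0.453). Sdhd, the other membrane anchor, varied more within the CAF group, at 38.0, 145 and 121 CPM, against 312, 407 and 87.5 CPM in the normal libraries. Its log2 fold change was -1.39 ± 0.66 (adjusted p = 0.379).

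Complex III had a median of -1.27 over its 7 genes, 3 of them with an unadjusted p under 0.05. Uqcr11, a small accessory subunit, was at 383, 249 and 226 CPM in the CAF libraries and 994, 927 and 246 CPM in the normal libraries. Only normal libraries 1 and 2 exceeded the CAF libraries, and the log2 fold change was -1.34 ± 0.55 (adjusted p = 0.300). Uqcrc1, a core protein of the matrix side, had -1.27 ± 0.50 (adjusted p = 0.279). Uqcr10, an accessory subunit, had -1.16 ± 0.46 (adjusted p = 0.289), and Uqcrh, the hinge protein that binds cytochrome c1, had -0.62 ± 0.49 (adjusted p = 0.631).

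Uqcrb and Uqcrc2, both named after their values were seen, did not follow the order of the other complex III genes. Uqcrb, which helps form the coenzyme Q site, was at 2.93, 64.6 and 74.5 CPM in the CAF libraries and 15.9, 352 and 6.25 CPM in the normal libraries. Uqcrc2, the other core protein, was at 41.0, 108 and 131 CPM in the CAF libraries and 123, 310 and 16.3 CPM in the normal libraries. In both genes CAF libraries 2 and 3 and normal library 2 were high relative to the other libraries of their group. These are the 3 libraries whose levels ran against the GC content of transcripts over 9871 genes (Spearman's rho -0.418, -0.424 and -0.269), while CAF library 1 and normal libraries 1 and 3 ran with it (0.362, 0.181 and 0.264). Atp5mpl, a small ATP synthase subunit also chosen after its values were seen, showed the same order, at 11.7, 59.3 and 66.8 CPM in the CAF libraries and 31.0, 236 and 13.8 CPM in the normal libraries. In the last 500 bases of the transcript, GC content was 40.8% for Uqcrb, 33.8% for Uqcrc2 and 50.4% for Atp5mpl. The median over the respiratory genes with a value was 49.9%, so Atp5mpl was not low in GC. Other genes with low GC there went both ways in the CAF libraries, as 2 genes chosen after their values were seen show. Ndufv2 (35%) was at 114, 191 and 194 CPM, and Cox7c (34.4%) was at 481, 278 and 274 CPM. The part of the GC relation in these levels was not tested. Uqcrb had a log2 fold change of -1.32 ± 1.40 over all libraries, 2.05 without normal library 2, and -2.27 (adjusted p = 0.0628) with the GC side of each library as a block, an alternative chosen after the data were seen. Without normal library 2, Uqcrc2 went from -0.66 to 0.39 and Atp5mpl from -0.96 to 1.02.

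The 11 ubiquitous subunits of complex IV, cytochrome c oxidase, had a median log2 fold change of -1.12 and all were below 0. Cox6a1 was at 743, 947 and 929 CPM in the CAF libraries and 3346, 3999 and 839 CPM in the normal libraries. Normal library 3 lay within the CAF range, and normal libraries 1 and 2 stood far above both (log2 fold change -1.64 ± 0.58, adjusted p = 0.225). Cox4i1, a subunit at which ATP is known to inhibit the enzyme, was at 1358, 1082 and 990 CPM in the CAF libraries and 2802, 2794 and 979 CPM in the normal libraries. Here normal library 3 was just below the CAF libraries (-0.94 ± 0.47, adjusted p = 0.410). Cox5a, a matrix-side subunit named after its values were seen, was at 294, 380 and 296 CPM in the CAF libraries and 1183, 1316 and 374 CPM in the normal libraries, with a log2 fold change of -1.57 ± 0.50 (adjusted p = 0.179). Cox5b, which binds zinc, had -1.33 ± 0.50 (adjusted p = 0.254) and Cox8a, a single-span membrane subunit, -1.12 ± 0.52 (adjusted p = 0.369). Cox7b, another such subunit, was at 190, 177 and 175 CPM in the CAF libraries and 288, 1073 and 95 CPM in the normal libraries, so 1 normal library carried its fold change of -1.42 ± 0.76 (adjusted p = 0.446).

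**Figure D3:**
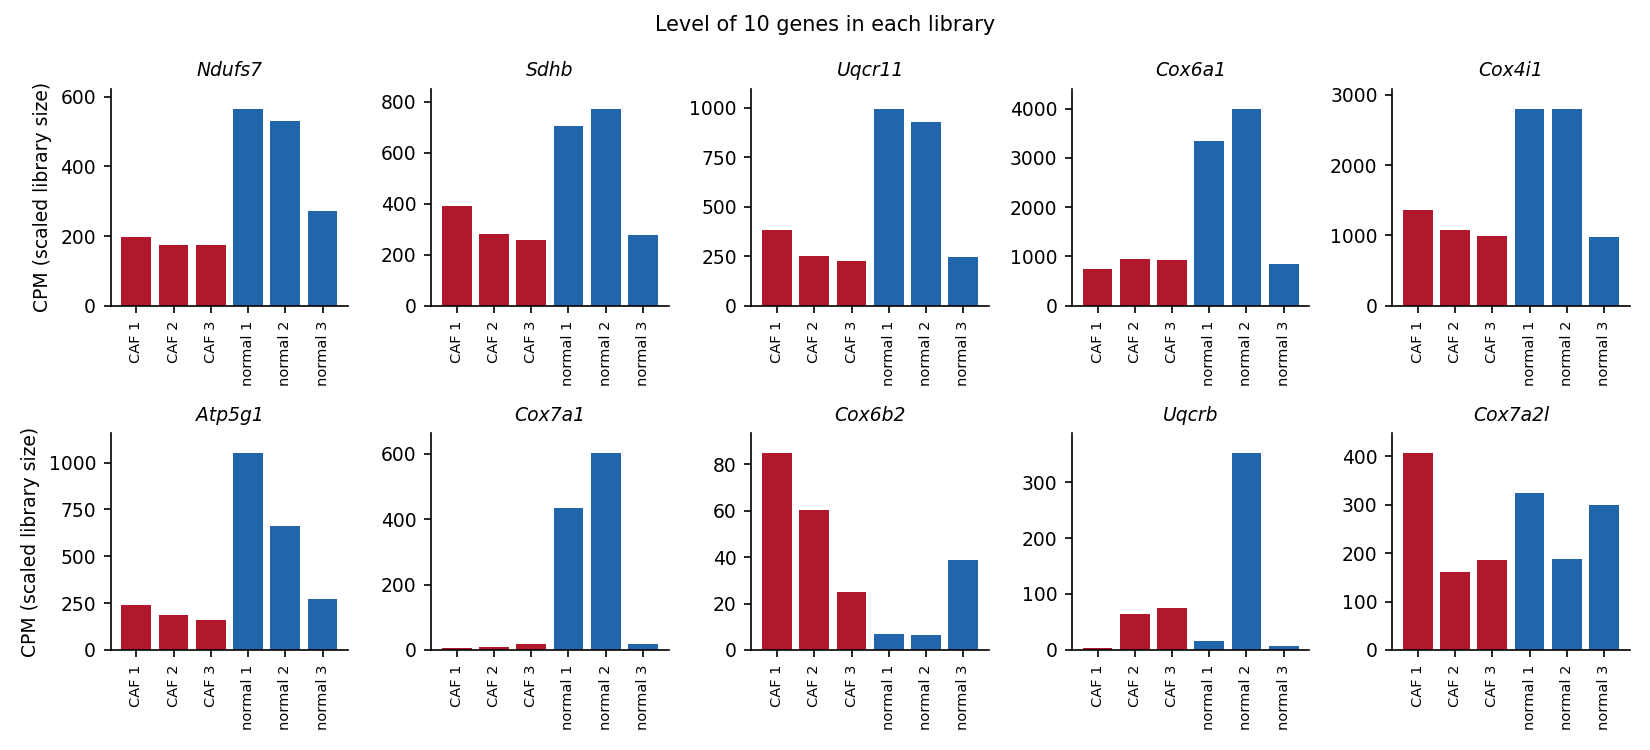
Bars give CPM on scaled library sizes (vertical axis from 0, own scale per panel) for 10 genes in each of the 6 libraries (CAF red, normal blue). Ndufs7, Sdhb, Uqcr11, Cox6a1, Cox4i1, Atp5g1 and Cox7a1 are high in normal libraries 1 and 2, Cox6b2 is low in those libraries at 6.94 and 6.33 CPM, Uqcrb is high in normal library 2, and Cox7a2l overlaps between the groups.

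The tissue isoforms of complex IV gave the largest fold changes of the set in each direction. Cox7a1 (chr7:30184144-30186078, plus strand, mm10), the heart and skeletal muscle form of subunit 7a, was at 5.85, 9.38 and 17.2 CPM in the CAF libraries and 435, 603 and 18.8 CPM in the normal libraries. Normal library 3 stood next to CAF library 3, and normal libraries 1 and 2 were far above all others. The log2 fold change was -4.94 ± 1.13, or 30.6-fold lower in CAF (adjusted p = 0.0811). Against normal library 3 alone it was -0.65, and without that library -5.53 (adjusted p = 0.00407). Of the counts for Cox7a1 and its ubiquitous counterpart Cox7a2 together, Cox7a1 took 3.64%, 4.80% and 8.72% in the CAF libraries, against 52.9%, 50.5% and 21.1% in the normal libraries. The 21.1% in normal library 3 rested on 71 counts (95% exact binomial interval 12.3% to 32.4%), and its interval lay above that of CAF library 3 (7.32% to 10.3%). These intervals cover counting error only and not the spread between mice. The share of the muscle form in normal library 3 was between those of the CAF and the other normal libraries. Its level there, 18.8 CPM, was near the 17.2 CPM of CAF library 3, and Cox7a2 was low in that normal library. Cox7a2 was at 155, 186 and 180 CPM in the CAF libraries and 388, 591 and 70 CPM in the normal libraries. Its log2 fold change was -1.01 ± 0.66 (adjusted p = 0.548).

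Cox6b2 (chr7:4751792-4753094, minus strand, mm10), known as the testis form of subunit 6b, ran the other way, at 84.9, 60.3 and 24.8 CPM in the CAF libraries and 6.94, 6.33 and 38.8 CPM in the normal libraries. Normal library 3 lay inside the CAF range, and the log2 fold change was 1.74 ± 0.79 (adjusted p = 0.355). Its share of the Cox6b1 and Cox6b2 counts was 11.7%, 11.7% and 5.35% in the CAF libraries, against 0.554%, 0.380% and 12.2% in the normal libraries. Cox6b1, the ubiquitous form, had -1.06 ± 0.61 on the log2 scale (adjusted p = 0.485). Cox4i2, the hypoxia-responsive form of subunit 4, was low throughout, at 17.6, 10.4 and 3.52 CPM in the CAF libraries and 6.53, 3.80 and 13.8 CPM in the normal libraries. The groups overlapped, and its log2 fold change of 0.29 ± 0.75 (adjusted p = 0.909) took both signs when single libraries were left out (-0.18 to 0.78). Cox8b, the muscle form of subunit 8, was at 1.08 to 4.39 CPM in the CAF libraries, with 2, 0 and 1 counts in the normal libraries. The 0 in normal library 2 allows a level of up to 3.80 CPM (3 counts), so no difference was detectable at this depth.

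Ndufa4 is a subunit of complex IV that its hypoxia-induced relative Ndufa4l2 can replace. Ndufa4 was at 130, 62.2 and 66.0 CPM in the CAF libraries and 191, 142 and 75.0 CPM in the normal libraries (log2 fold change -0.68 ± 0.46, adjusted p = 0.561). Ndufa4l2, which is outside the set, was at 148, 87.9 and 47.7 CPM in the CAF libraries and 8.98, 2.53 and 30.0 CPM in the normal libraries. All CAF libraries lay above all normal libraries, and the log2 fold change was 2.79 ± 0.78 (adjusted p = 0.129). Of the counts of the pair, Ndufa4l2 took 53.2%, 58.5% and 42.0% in the CAF libraries, against 4.49%, 1.75% and 28.6% in the normal libraries, the last from 84 counts (interval 19.2% to 39.5%). Cox7a2l, a factor that joins complexes III and IV into supercomplexes, was at 407, 162 and 186 CPM in the CAF libraries and 325, 187 and 299 CPM in the normal libraries. Its groups overlapped (log2 fold change -0.11 ± 0.44, adjusted p = 0.944), and with the GC side as a block the value turned to 0.14.

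**Figure D4:**
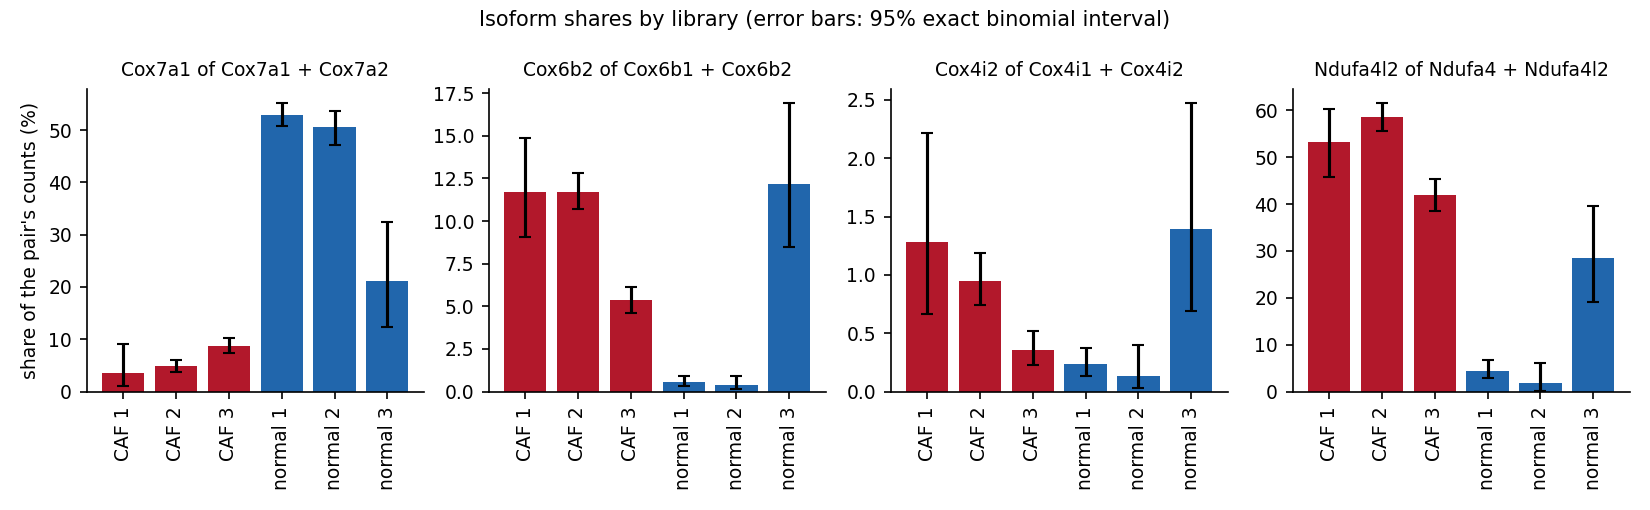
Bars give the share of a gene in the summed counts of an isoform pair (percent, vertical axis from 0, own scale per panel) in each library (CAF red, normal blue), and error bars are 95% exact binomial intervals, which cover counting error only. Cox7a1 took 52.9% and 50.5% of its pair in normal libraries 1 and 2, and Cox6b2, Cox4i2 and Ndufa4l2 took their lowest shares in those libraries.

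Complex V had a median log2 fold change of -0.80 over its 17 genes, all below 0, with a range of -1.78 to -0.55. Atp5b, the catalytic beta subunit of the F1 head, was at 809, 864 and 788 CPM in the CAF libraries and 1892, 2584 and 499 CPM in the normal libraries. Normal library 3 was below all CAF libraries, and the log2 fold change was -1.02 ± 0.57 (adjusted p = 0.467). Atp5d, a subunit of the central rotor, had -0.55 ± 0.42 (adjusted p = 0.618). The 5 tested genes of the F1 head and rotor had a median of -0.71, as had the 4 of the peripheral stalk, which holds the head still.

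The 3 genes Atp5g1, Atp5g2 and Atp5g3 encode the same mature c subunit of the rotating ring. Atp5g1 was at 238, 184 and 158 CPM in the CAF libraries and 1052, 664 and 273 CPM in the normal libraries. Every normal library exceeded every CAF library, and the log2 fold change was -1.78 ± 0.51, or 3.43-fold lower in CAF (adjusted p = 0.138). Atp5g3 was at 595, 716 and 643 CPM in the CAF libraries and 2025, 1818 and 738 CPM in the normal libraries, again without overlap (-1.23 ± 0.44, adjusted p = 0.233). Atp5g2 overlapped between the groups (-0.62 ± 0.46, adjusted p = 0.606). Atp5g1 took 27.7%, 20.0% and 19.3% of the counts of the 3 genes in the CAF libraries, against 33.6%, 26.6% and 26.2% in the normal libraries, which overlap.

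The call depended on normal library 3 and on the test. Without normal library 3, 42 of 76 genes were lower in CAF at an adjusted p under 0.05, against 6.57% of all genes in that fit, and Cox6b2 was higher (log2 fold change 2.96, adjusted p = 0.0350). The 43 genes called in either direction were 20 of complex I, 2 of complex II, 4 of complex III, 10 of complex IV and 7 of complex V. With normal library 3 as the only normal library, which assumes that it varies as the CAF libraries do, 0 of 78 were called, as for 0% of all genes. The median over the 76 genes was then 0.29, against 0.19 over the tested genes that this fit also held, and 23 of 76 were below 0. CAF over normal libraries 1 and 2, and CAF over normal library 3, gave medians of opposite sign in each of the complexes: -1.30 and 0.07 in complex I, -1.30 and 0.37 in complex II, -1.70 and 0.56 in complex III, -1.57 and 0.27 in complex IV and -1.25 and 0.61 in complex V. Against normal library 3, the median of complex I stayed below the 0.19 over all genes, and those of the other complexes lay above it. DESeq2 called 6 of 77 genes lower with all libraries, against 4.17% of all genes: Cox7a1 (adjusted p = 2.95e-05), Ndufb4 (0.00773), Ndufs7 (0.0135), Atp5g1 (0.0180), Cox5a (0.0416) and Ndufs8 (0.0474). In the authors' deposited table, 5 of 78 genes passed an adjusted p of 0.05 as lower, against 3.61% of all genes, with log2 fold changes of -5.02 for Cox7a1, -1.25 for Ndufb4, -1.35 for Ndufs7, -1.79 for Atp5g1 and -1.59 for Cox5a.

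**Figure D5:**
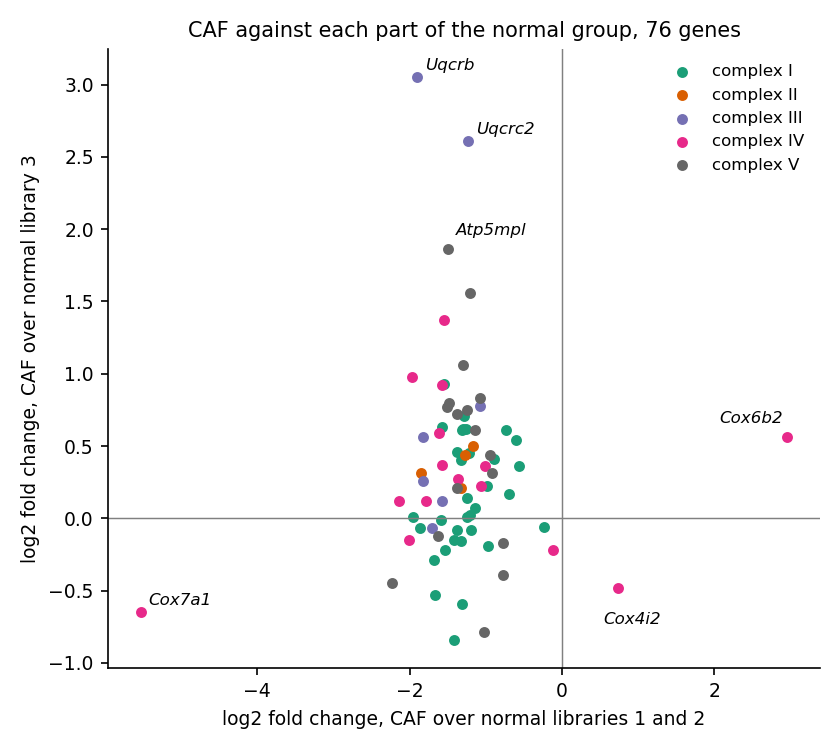
Each point is 1 of 76 respiratory genes (colour by complex), with its log2 fold change of CAF over normal libraries 1 and 2 on the horizontal axis and over normal library 3 alone on the vertical axis. Both axes share the 3 CAF libraries, so the axes are not independent; most genes lie between -2.23 and 0 on the horizontal axis and on both sides of 0 on the vertical axis, while Cox7a1 lies at -5.53 and -0.65.

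Other mitochondrial pathway lists also had medians below 0, and edgeR called 0 genes in any of the 13 pathway lists. These medians, too, differed between the normal libraries. Against normal library 3 alone they were -0.05 for fatty acid oxidation (7 of 14 genes below 0), 0.34 for the tricarboxylic acid cycle, 0.03 for mitochondrial ribosomal proteins, -0.04 for mitochondrial import and 0.51 for carriers and porins, beside 0.19 over all genes. The values that follow are over all 6 libraries. Fatty acid oxidation had a median log2 fold change of -0.84 with 14 of 14 genes below 0. Hadhb, the beta subunit of the trifunctional protein, had -1.44 ± 0.34 (adjusted p = 0.0887). The tricarboxylic acid cycle had a median of -0.80 with 16 of 17 below 0. Mitochondrial ribosomal proteins had a median of -0.35 with 55 of 65 below 0 (Mrps24, -0.95 ± 0.31, adjusted p = 0.195). Mitochondrial import had -0.30 over 19 genes (Dnajc19, of the import motor, -0.87 ± 0.32, adjusted p = 0.247), and mitochondrial carriers and porins had -0.47 over 12. Mpc2, of the pyruvate carrier, had -1.52 ± 0.36 (adjusted p = 0.0925).

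Factors that build the complexes had medians of -0.42 for complex I (13 genes; Ndufaf3, -0.84 ± 0.30, adjusted p = 0.231), -0.25 for complexes II and III (7 genes; Uqcc1, -0.86 ± 0.40, adjusted p = 0.361), -0.73 for complex IV (14 genes; Coa6, -0.74 ± 0.28, adjusted p = 0.265) and -0.65 for the ATP synthase (4 genes). Against normal library 3 alone these medians were -0.01, -0.13, -0.22 and 0.28. Fmc1, an assembly factor of the ATP synthase, was at 76.1, 61.7 and 71.3 CPM in the CAF libraries and 174, 160 and 125 CPM in the normal libraries. Its groups did not overlap (-1.14 ± 0.29, adjusted p = 0.0998). Coenzyme Q synthesis had a median of -0.58 over 12 genes, and 0.07 against normal library 3 alone. Coq8a, an atypical kinase of that pathway, was at 7.32, 7.18 and 9.74 CPM in the CAF libraries and 69.4, 76 and 15.0 CPM in the normal libraries (-2.71 ± 0.61, adjusted p = 0.0791). Regulators of mitochondrial biogenesis had a median of -0.17 over 14 genes (-0.04 against normal library 3 alone), and Esrra, the estrogen-related receptor alpha, had -0.94 ± 0.42 (adjusted p = 0.337). The 5 tested subunits and carriers outside the symbol rule had a median of -0.78 (0.20 against normal library 3 alone), among them Ndufab1, the acyl carrier protein of complex I (-1.52 ± 0.40, adjusted p = 0.108).

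Glycolysis went the other way on average, with a median of 0.55 and 14 of 16 genes above 0, but the libraries overlapped. Relative to each gene's CAF mean, the list's median was 0.76, -0.10 and -0.59 in CAF libraries 1 to 3. It was 0.02, -0.36 and -1.03 in normal libraries 1 to 3, so CAF library 3 lay below normal libraries 1 and 2. Slc16a3, which exports lactate, was at 274, 167 and 79.4 CPM in the CAF libraries and 15.9, 8.87 and 40.0 CPM in the normal libraries. Its groups did not overlap (log2 fold change 3.01 ± 0.66, adjusted p = 0.0760). The median of the glycolysis list was 0.07 without normal library 3 and 1.32 against normal library 3 alone. Without normal library 3, 1 of 16 glycolysis genes was called in either direction, against 1004 of the 10148 genes tested with all libraries. Slc16a3 was lower in normal libraries 1 and 2 than in normal library 3.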

How the data were processed

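RNA 3′ ends were counted in 6 MARS-seq libraries (3 CAF, 3 normal) from separate mice or pools of mice. Per the submitters' processing notes, the tools were cutadapt, STAR, HTSeq and DESeq2 (versions not given) and the build mm10. The authors deposited raw counts per gene symbol, which were tested here. Per the file headers, the deposited table also holds a normalized signal and regularized log2 values, not used here, and the authors' log2 fold change and adjusted p-value, printed only where named. All 14228 genes reached at least 6 counts in some library.

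Counts were fitted with edgeR 4.0.16 in R 4.3.3 (filterByExpr, trimmed mean of M-values, quasi-likelihood F test on the group term, Benjamini-Hochberg adjustment over 10148 genes, threshold 0.05). Each standard error is the fold change divided by the root of its F statistic, an approximation. Log2 CPM used a prior count of 2. Alternatives were DESeq2 1.42.0, limma-voom (limma 3.58.1), other size factors and filters, libraries left out, the number of mice, gland or ribosomal protein genes removed and, added after the data were seen, the GC side of each library as a block. The tests were also run on simulated counts. No outcome of those runs is given here, and no result in the text rests on them. Intervals are 95% exact binomial.

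The genes, lists and tests were chosen with earlier results of these data known. Genes named by rule are, per complex, the 3 of highest mean CPM and that of smallest p in each direction, the isoform sets, complex II, Ndufa4 and Ndufa4l2, genes with a library at 0, the gene of smallest p in each pathway list, and Atp4a, Atp4b and Cblif. Of these, 1 gene is left out of the text. Other genes were named after their values were seen, including those without overlap between groups and those holding motifs. Positions and GC content come from GENCODE M21 (mm10, 76 of 78 genes), and promoters from RefSeq GRCm38.p6.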

Additional observations from a re-analysis of the deposited data

How the results depend on the processing

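The number of respiratory genes called was 0 in the main fit and 6 with DESeq2. It ranged from 0 to 43 when each library was left out in turn, with 43 only without normal library 3. The median log2 fold change over the genes was -0.90 and ranged from -1.32 to -0.58 when each library was left out. It was -0.93 with DESeq2, -0.71 with limma-voom, -0.94 with relative log expression factors, -0.91 with upper-quartile factors, -0.49 with a mouse-number covariate and -1.04 with the GC side as a block. It reversed to 0.29 with normal libraries 1 and 2 left out, where the median over all genes was also 0.29. The cause was not tested. The next counts cover 53 tested genes: those of the naming rule and Ndufs7, Ndufs8, Cox5a, Uqcrb, Uqcrc2, Atp5mpl and Ndufc2. Other genes in the text, such as Atp5h (0.83 in that fit), are not counted. Of the 53, 25 reversed in that fit: Ndufa13 0.41, Ndufb9 0.01, Ndufa7 0.17, Sdha 0.50, Sdhb 0.21, Sdhc 0.44, Sdhd 0.31, Uqcrh 0.78, Uqcr11 0.26, Uqcr10 0.12, Uqcrb 3.05, Uqcrc2 2.61, Cox4i1 0.27, Cox4i2 -0.48, Cox5b 0.12, Cox6a1 0.12, Cox6b1 0.92, Cox7a2 1.37, Cox7b 0.98, Cox8a 0.37, Ndufa4 0.22, Atp5b 0.77, Atp5d 0.44, Atp5mpl 1.86 and Esrra 0.22. With limma-voom, Cox4i2 turned to -0.14, Uqcrb to 0.73 and Atp5mpl to 0.13. With the mouse-number covariate, Uqcrc2 turned to 0.13, and with the GC side as a block, Cox7a2l turned to 0.14 and Slc16a3 passed the threshold (adjusted p = 0.0432). Leaving out single libraries gave ranges of -0.18 to 0.78 for Cox4i2, -0.64 to 0.14 for Cox7a2l, -1.91 to 2.05 for Uqcrb, -1.23 to 0.39 for Uqcrc2, -1.49 to 1.02 for Atp5mpl and -0.49 to 0.05 for Ndufc2. Of the values of these 53 genes under the alternatives, 805 kept their direction and side of the threshold, 52 newly passed it (34 without normal library 3, 17 with DESeq2 and 1 with the GC side as a block) and 40 reversed. No paired analysis was possible because the CAF titles carry no replicate numbers. The depth of CAF library 1 and of normal libraries 2 and 3 limits genes of few counts, such as Cox8b, Ndufa11, Cox4i2 and Cox7a1.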
